A study of Mus musculus with 3 samples.

Results

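Lung B cells are described here in 3 single-cell RNA libraries of mouse lung, taken as the cells that carried B cell receptor and CD20 transcripts and no transcripts of the CD3 chains of the T cell receptor complex. Cells were kept from 500 UMIs (unique molecular identifiers, which tag RNA molecules at capture) and 200 genes upward, with no more than 20% of UMIs from mitochondrial genes. Members were chosen by their measured UMIs: a B cell had at least 1 UMI of Ms4a1 (CD20), at least 2 UMIs of Cd79a (a signalling chain of the B cell receptor) and no UMI of Cd3d, Cd3e or Cd3g. Cells with at least 10 UMIs of Jchain and at least 3 UMIs of Mzb1 were set aside as plasma cells. The rule found 1881 B cells among 30973 kept cells: 535 of 9647 in PD00, 690 of 11537 in Model and 656 of 9789 in Control.

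The libraries carry the treatment labels PD00, Model and Control, and there was 1 library for each. The series title describes PD00 as a peptidomimetic and names ovalbumin (OVA) as the inducing agent. The mice of all 3 libraries were 3 months old, and the labels call the lung tissue of all of them healthy. Strain, number of animals per library, dose and schedule, and whether the PD00 library also received ovalbumin, are not given in the sources used here. Since each treatment has 1 library, differences could not be set against replicates and were not tested, and the 95% intervals cover counting error only.

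B cells carry a membrane immunoglobulin as antigen receptor, together with the signalling chains Cd79a and Cd79b. Naive follicular B cells carry both IgM and IgD and recirculate through lymphoid organs, whereas memory B cells and B cells of tissues have often lost IgD and may have switched their heavy chain to IgG, IgA or IgE. B-1 cells are a self-renewing innate-like lineage known best from body cavities. In the lung, allergen exposure is known to leave memory B cells resident in the tissue and plasma cells that secrete antibody.

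The gate genes are no result, so the label was checked on other genes. Pax5, the transcription factor that maintains B cell identity, had UMIs in 72.1% of the gated cells in PD00, 75.7% in Model and 61.6% in Control. All 14 B cell markers outside the gate, Pax5 among them, were found in over 10% of B cells in each library. Their summed level was 2923 CPM (UMIs per 1000000 UMIs of the summed cells) in PD00, 3315 CPM in Model and 3689 CPM in Control. In T cells of the same libraries, taken as cells with at least 2 Cd3 UMIs and neither Ms4a1 nor Cd79a, the sums were 80.8, 94.5 and 91.4 CPM. Genes outside the gate were ranked by their smallest ratio to the other cells over the 3 libraries. The ranking took only genes found in a set minimum share of the B cells of each library, without unnamed gene models. Among these Pax5 led with a ratio of 42.7, followed by Cd79b with 37.6 and Fcmr, the receptor for the Fc part of IgM, with 34.6. These genes come from the cells the gate chose, so their ratios describe the cells and test nothing.

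At the edge of the gate, cells with exactly 1 Ms4a1 UMI held Pax5 in 66.3% of 95 cells in PD00, 69.3% of 140 in Model and 51.6% of 225 in Control. Just outside it, cells with at least 2 Cd79a UMIs but no Ms4a1 UMI held Pax5 in 48.0% of 100 cells in PD00, 56.4% of 133 in Model and 47.9% of 238 in Control. The gate thus left out cells that carried Pax5 in each library.

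Each library held 80288883 UMIs in PD00, 81816397 in Model and 83281019 in Control. The B cells contributed 3755448, 4300033 and 3161172 of these, with medians of 5664, 4882.5 and 3422 UMIs per cell. Over all kept cells the medians were 4604, 4043 and 5479 UMIs, and over T cells 4342.5, 4568.5 and 4444 UMIs. Whether Control B cells were read less deeply or held less RNA per cell cannot be told apart. At an equal depth of 1000 UMIs, a B cell had a median of 537 genes in PD00, 516 in Model and 529 in Control, over the 534, 688 and 654 cells that reached it. Between any pair of libraries 31 to 43 cell barcodes were shared, and no B cell barcode was a B cell in both. A doublet score of at least 0.2 marked 18 B cells in PD00 (3.36%), 16 in Model (2.32%) and 41 in Control (6.25%). Transcripts of other cells were present in the B cell sums. The 10 macrophage and monocyte markers summed to 8608 CPM in PD00, 7594 CPM in Model and 3143 CPM in Control B cells. Most of that was Chil3, at 7857, 6861 and 339 CPM, and the other 9 markers were highest in Control, with sums of 751, 733 and 2804 CPM. The 5 epithelial markers summed to 480, 1830 and 8749 CPM, nearly all of it Scgb1a1, a secretory cell product, at 444, 1788 and 8668 CPM. The 4 endothelial markers summed to 191, 60.2 and 297 CPM in B cells and to 140, 110 and 228 CPM in T cells, and the 4 haemoglobin genes to 77.2, 248 and 3993 CPM in B cells. The 7 T cell markers outside the gate summed to 37.3, 57.0 and 33.5 CPM, and those of basophils and mast cells to 0.799 CPM in PD00 and were at 0 in the other libraries. In T cells the macrophage and monocyte markers summed to 17250, 19158 and 2853 CPM and the epithelial markers to 1177, 785 and 2465 CPM. The haemoglobin genes summed to 52.3, 295 and 1225 CPM there. The 5 neutrophil markers summed to 464, 1017 and 652 CPM in B cells and 4412, 7220 and 2575 CPM in T cells. T cells thus held more of some of these transcripts and less of others than B cells did. The part of these transcripts in the results below was not tested, and levels in T cells are given beside some of the genes that both cell types show. A gene given without a T cell level is not thereby absent from T cells.

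B cells were a little rarer among kept cells in PD00 and Model than in Control. They made up 5.55% of kept cells in PD00 (exact Clopper-Pearson interval 5.10 to 6.02%), 5.98% in Model (5.55 to 6.43%) and 6.70% in Control (6.21 to 7.21%). The ratio of shares was 0.927 for PD00 over Model (0.827 to 1.04), an interval that includes 1. It was 0.892 for Model over Control (0.801 to 0.995) and 0.828 for PD00 over Control (0.737 to 0.929). The order of Model and Control turned with the denominator: among kept cells with a UMI of Ptprc (CD45) B cells were 6.34% in PD00, 6.96% in Model and 6.61% in Control, and the Model over Control ratio was 1.05. Cells of at least 1000 UMIs were also thinned to 1000 UMIs before the gate, which sets their UMIs equal. The shares were then 1.57%, 1.89% and 2.68%, and the Model over Control ratio was 0.705 (0.582 to 0.854). Cells under 1000 UMIs were left out there, which kept 8517 of 9647 cells in PD00, 10144 of 11537 in Model and 9467 of 9789 in Control. Plasma cells by the stated rule were 371 in PD00, 416 in Model and 33 in Control.

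**Figure D1:**
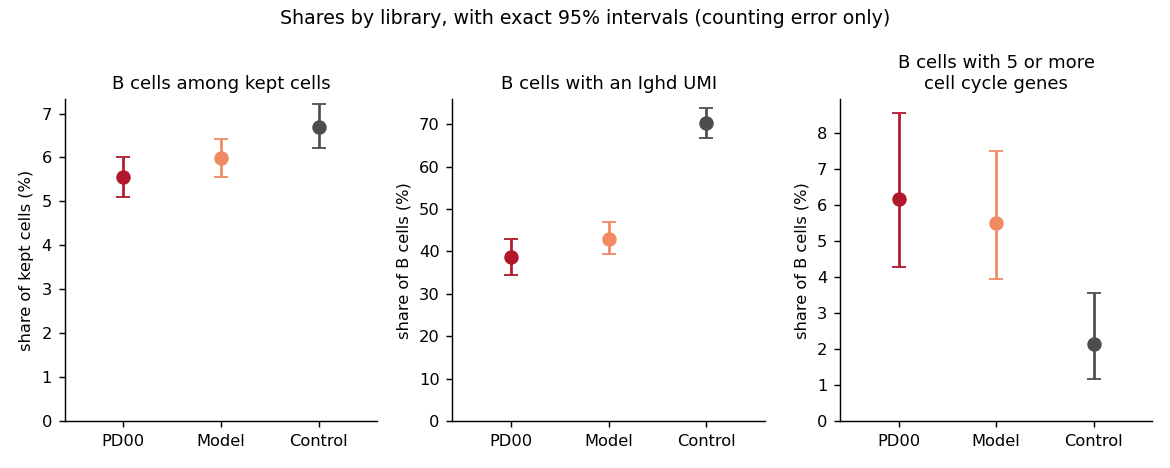
Shares of cells in the PD00, Model and Control libraries (x axis), in percent of kept cells (left panel) or of B cells (other panels), with exact 95% intervals. The share of B cells lies between 5.55% and 6.70%, the share of B cells with an Ighd UMI is 38.7% in PD00 and 43.0% in Model against 70.4% in Control, and the share with 5 or more cell cycle genes is 6.17% in PD00 and 5.51% in Model against 2.13% in Control.

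The comparison of Model with Control asks how lung B cells of the ovalbumin model differ from those of Control. In Model the B cells showed less IgD and other genes of naive follicular cells and more of several genes of memory and B-1 cells. Among 8462 genes measured (50 or more UMIs in the 2 sums together), 673 (7.95%) were at least 1.5-fold higher in Model and 1394 (16.5%) at least 1.5-fold lower, and the median log2 ratio of all of them was -0.11. That split moved with the weighting: with the mean of the CPM of each cell 1095 were higher and 1051 lower, and scaled by the median of ratios 931 and 1081. Among the 651 genes at least 2 times higher in B cells than in the remaining cells, a group chosen after seeing the data, 127 were higher and 79 lower.

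Genes of naive follicular B cells were at lower levels in Model. Of 11 measured members of that list, 5 were at least 1.5-fold lower and none higher, with a median log2 ratio of -0.28. Ighd, the constant region of IgD (chromosome 12, 113406604 to 113416324 in GRCm38), stood at 143 CPM in PD00, 188 CPM in Model and 402 CPM in Control, with a Model over Control ratio of 0.468 (0.428 to 0.511). Control, whose B cells had the fewest UMIs, had the highest level. Fcer2a, the low-affinity IgE receptor CD23 of follicular B cells (chromosome 8, 3681737 to 3694175), was at 77.8, 102 and 221 CPM, a ratio of 0.463 (0.410 to 0.522). Its level in T cells was 0.552 CPM in PD00, 0.922 CPM in Model and 0.920 CPM in Control. Klf2, a transcription factor of lymphocyte trafficking, was at 476 CPM in PD00, 426 CPM in Model and 1129 CPM in Control, a ratio of 0.377 (0.356 to 0.399). T cells showed the same order for Klf2, at 318, 258 and 909 CPM. S1pr1, the receptor by which lymphocytes leave tissues, was at 129, 103 and 158 CPM (0.654; 0.575 to 0.745), and Cd55, a complement regulator, at 146, 171 and 277 CPM (0.619; 0.560 to 0.683). Ccr7, Bach2, Foxo1, Btla and Bcl2 were among the 6 that lay within 1.5-fold. In T cells 7 of 9 measured members of this list were lower in Model and 1 higher, with a median of -1.37.

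Memory genes were higher in Model. Of 9 measured members 6 were at least 1.5-fold higher and 1 lower, with a median log2 ratio of 1.32; in T cells 4 of 9 were higher and none lower, with a median of 0.37. Cd80, a costimulatory ligand for T cells (chromosome 16, 38455561 to 38496335), was at 51.9 CPM in PD00, 36.0 CPM in Model and 12.3 CPM in Control, a Model over Control ratio of 2.92 (2.05 to 4.26). Zbtb32, a transcriptional repressor that restrains secondary antibody responses (chromosome 7, 30589681 to 30598909), was at 34.6, 37.7 and 8.86 CPM (4.25; 2.84 to 6.60). Pdcd1lg2 (PD-L2), a ligand of PD-1, was at 19.2 CPM in PD00, 19.1 CPM in Model and 5.06 CPM in Control (3.77; 2.19 to 6.90), but at 13.2, 21.1 and 4.14 CPM in T cells. Nt5e (CD73), an ectoenzyme that makes adenosine, was found in few B cells, at 12.8, 10.2 and 3.16 CPM (3.23; 1.60 to 7.21). Cd38, another ectoenzyme, was at 63.4, 61.4 and 24.7 CPM (2.49; 1.93 to 3.25), and Ccr6, the receptor of the chemokine CCL20, at 81.5, 86.7 and 49.7 CPM (1.75; 1.45 to 2.12). For each of these but Cd80, the interval of the PD00 over Model ratio included 1. Cd44, an adhesion receptor, went the other way, at 265 CPM in PD00, 197 CPM in Model and 382 CPM in Control (0.515; 0.472 to 0.563). Hhex and Vim lay within 1.5-fold.

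Of 10 measured B-1 cell genes, 6 were at least 1.5-fold higher in Model, Zbtb32 again among them, and 1 lower, with a median log2 ratio of 0.86; in T cells 3 of 10 were higher and 1 lower (median 0.46). Fcrl5, an Fc receptor-like protein of B-1 and marginal zone cells (chromosome 3, 87435773 to 87500678), was at 24.5 CPM in PD00, 29.1 CPM in Model and 4.11 CPM in Control, a ratio of 7.07 (3.99 to 13.6), and at no more than 0.154 CPM in T cells. Plscr1, a phospholipid scramblase, was at 80.4, 77.2 and 34.5 CPM (2.24; 1.80 to 2.81), and Ahr, the aryl hydrocarbon receptor, at 51.4, 38.8 and 19.3 CPM (2.01; 1.49 to 2.74). S100a6, a calcium-binding protein, was at 835, 546 and 335 CPM (1.63; 1.52 to 1.76), with 746, 852 and 759 CPM in T cells. Ctla4 was at 8.52, 13.3 and 2.21 CPM but far higher in T cells, at 275, 221 and 90.2 CPM. Anxa2 was lower in Model, at 160 CPM in PD00, 130 CPM in Model and 236 CPM in Control. Bhlhe41, Spn and Itgb1 lay within 1.5-fold, and Cd5 had too few UMIs to be measured, so the classical B-1a marker gave no value.

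**Figure D2:**
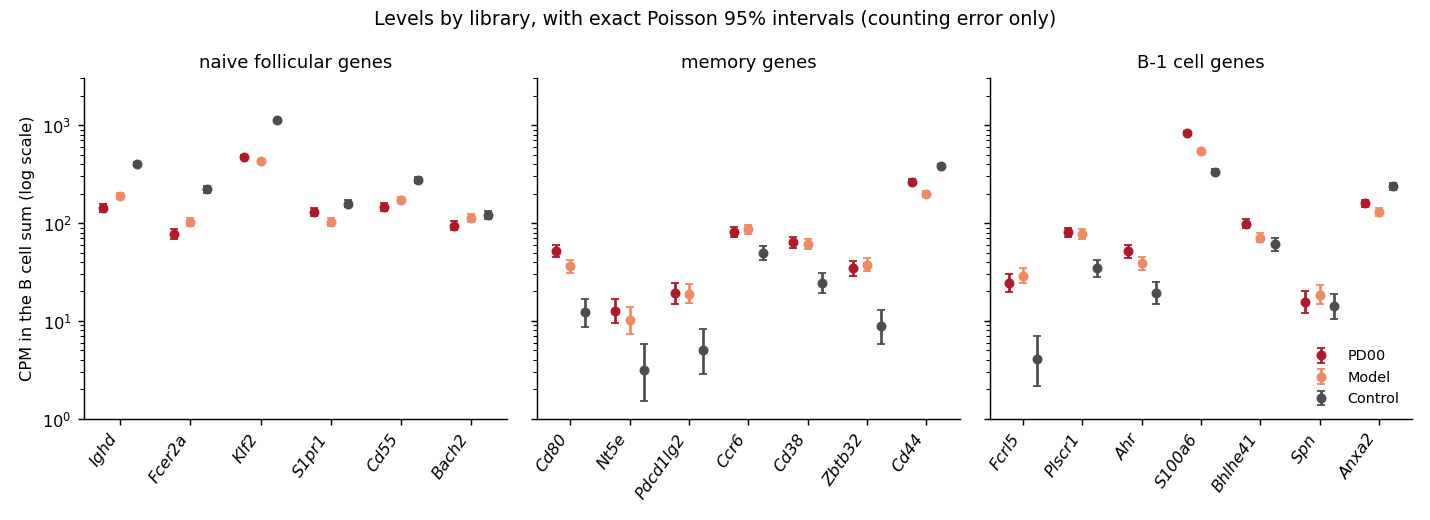
CPM in the B cell sum (y axis, log scale) of genes of the naive follicular, memory and B-1 cell lists (x axis) in PD00, Model and Control, with exact Poisson 95% intervals. Fcrl5 is at 24.5 CPM in PD00 and 29.1 CPM in Model against 4.11 CPM in Control, while Ighd is at 143 and 188 CPM against 402 CPM.

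The 10 genes highest in Model by the naming rule, which asks for a level in B cells at least 2 times that of the other cells, included Fcrl5 and Zbtb32 and 8 further genes. Lmo7, a LIM domain protein of the cytoskeleton, was at 91.1 CPM in PD00, 80.5 CPM in Model and 11.7 CPM in Control (6.87; 4.89 to 9.93) and was found in 27.3%, 22.3% and 2.90% of B cells. Cdh17, a cadherin, was at 20.8, 19.8 and 1.27 CPM (15.6; 5.88 to 58.6). Crisp1, a secreted cysteine-rich protein, was at 12.5, 13.7 and 0.633 CPM, the last from 2 UMIs (21.7; 5.74 to 183). Rap1gap, which switches off the GTPase Rap1, was at 31.4, 31.6 and 5.38 CPM (5.88; 3.54 to 10.4). Nek2, a kinase of the centrosome, and Slc7a7, an amino acid transporter, had ratios of 6.89 and 4.41. The sizes of several ratios depended on the weighting of cells: with the mean of the CPM of each cell Nek2 was at 18.3, Lmo7 at 13.2 and Lipc at 10.6. Nek2 was at 42.7 without the cells that showed 5 or more cell cycle genes. Its level was 16.5 CPM in PD00, 17.4 CPM in Model and 2.53 CPM in Control, so that ratio rests on very few Control UMIs. With the stricter gate Lipc was at 10.3 and Crisp1 at 34.5. Zcwpw1, a reader of histone methylation, was at 39.9, 38.6 and 9.81 CPM (3.94; 2.67 to 5.98), and Lipc, hepatic lipase, at 12, 12.8 and 2.21 CPM. In T cells Lmo7 was at 2.49, 3.59 and 3.68 CPM, and Cdh17 at no more than 0.307 CPM. The PD00 over Model ratios of the 10 genes lay between 0.843 and 1.13, and the interval of each included 1.

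Among the 10 lowest genes, Vpreb3, which assists the assembly of immunoglobulin light chains, was at 31.4 CPM in PD00, 39.8 CPM in Model and 135 CPM in Control (0.294; 0.245 to 0.352). Tmem108 was at 19.7, 34.4 and 86.4 CPM (0.399; 0.324 to 0.489), a ratio that was 0.711 among cells with an Ighd UMI alone. Stat4, Neurl3 and Dusp2 had ratios of 0.366, 0.397 and 0.478, but stood at 66.5, 138 and 79.4 CPM in the T cells of Model. H3f3a and Hist1h1e, which encode a replacement histone and a linker histone, had ratios of 0.476 and 0.421. Mapk12 was measured from few UMIs, at 7.46, 3.26 and 13 CPM (0.251; 0.126 to 0.470). Klf2 and Fcer2a complete the 10.

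Genes of B cell identity differed little as a group, with 3 of 16 measured members at least 1.5-fold higher in Model, 2 lower and a median log2 ratio of 0.01. Among the higher ones, the kinase Blk was at 112 CPM in PD00, 126 CPM in Model and 63 CPM in Control (a ratio of 2; 1.70 to 2.37) and the transcription factor Spib at 131, 156 and 96.2 CPM (1.62; 1.41 to 1.86). In T cells Blk was at 17.7, 32.2 and 18.85 CPM. Ly6d, a surface protein of early and naive B cells, was lower, at 58.0, 93.5 and 187 CPM (0.500; 0.439 to 0.569), as was Ralgps2. Of 21 measured genes of B cell receptor signalling, 3 were higher and none lower (median 0.04). They were the adaptor Blnk, at 181, 156 and 82.2 CPM (1.89; 1.64 to 2.19), the kinase subunit Pik3cd (2.12; 1.67 to 2.71) and the inhibitory Fc receptor Fcgr2b (1.72; 1.38 to 2.14). Blnk and Fcgr2b were higher in Model in T cells too, at 23.6 against 1.01 CPM and 53.5 against 4.14 CPM.

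Of 15 measured MHC class II genes, whose products present antigen to T cells, 2 were higher in Model and none lower, with a median of 0.02; in T cells 8 of 14 were higher and 1 lower (median 1.04). Ciita, the master regulator of these genes, was at 103 CPM in PD00, 81.2 CPM in Model and 42.7 CPM in Control (1.90; 1.55 to 2.34), and H2-Eb2 at 23.7, 22.1 and 9.17 CPM (2.41; 1.57 to 3.79). The abundant chain H2-Aa was at 3884, 3901 and 3853 CPM. Of 13 measured homing receptors, 5 were higher and 1 lower (median 0.40). Cxcr5, which guides B cells to follicles, was at 82.3, 90.9 and 55 CPM (1.65; 1.38 to 1.99), Gpr183, an oxysterol receptor, at 105, 108 and 56.6 CPM (1.91; 1.60 to 2.28), and the integrin chain Itga4 at 431, 319 and 175 CPM (1.82; 1.65 to 2.02). Cxcr4 and Ccr6 were the other higher receptors, and S1pr1 the lower one. Of 11 survival receptor genes 1 was higher and 2 lower, and the higher one, Tnfrsf13b (TACI), was at 83.3, 67.9 and 41.1 CPM (1.65; 1.34 to 2.05).

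Of 16 B cell transcription factors 1 was higher in Model and 4 lower, with a median of -0.05. The higher one was Pou2f2 (Oct-2), which activates immunoglobulin and other B cell genes, at 395 CPM in PD00, 363 CPM in Model and 191 CPM in Control (1.91; 1.73 to 2.10) and at most 32.2 CPM in T cells. Its coactivator Pou2af1 was at 193, 195 and 136 CPM, a ratio of 1.44 (1.28 to 1.62). Oct-2 binds the octamer, searched here as ATTTGCAT and, on the other strand, ATGCAAAT, in the 250 bases before each start in RefSeq promoters of GRCm38.p6. The octamer was present for 490 of 27025 genes with a promoter (1.81%), for 7 of 278 list genes (2.52%) and for 1 of 32 named genes. Of these 8 genes, 3 were past the fold between Model and Control, Vpreb3 lower and Ccr6 and Blnk higher. Over all measured genes 7.95% were higher and 16.5% lower. Vpreb3 is among the 8 because the naming rule took it as a lowest gene, so its place past the fold was given beforehand. The promoters of these 3 genes are printed because they differ in direction while sharing the octamer, which is in capitals. Ccr6 has 2 promoters, and only that with the octamer is printed. The octamer begins 45 bases before the start in Vpreb3, 68 in Ccr6 and 130 in Blnk. Each runs 5′ to 3′ toward its gene, at chr10:75948050-75948299 on the plus strand for Vpreb3, chr17:8235793-8236042 on the plus strand for Ccr6 and chr19:40994222-40994471 on the minus strand for Blnk.
Vpreb3: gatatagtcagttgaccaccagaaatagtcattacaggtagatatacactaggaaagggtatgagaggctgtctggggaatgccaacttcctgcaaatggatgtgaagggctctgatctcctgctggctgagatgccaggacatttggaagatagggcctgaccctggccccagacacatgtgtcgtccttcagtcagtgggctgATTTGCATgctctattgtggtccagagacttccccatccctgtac
Ccr6: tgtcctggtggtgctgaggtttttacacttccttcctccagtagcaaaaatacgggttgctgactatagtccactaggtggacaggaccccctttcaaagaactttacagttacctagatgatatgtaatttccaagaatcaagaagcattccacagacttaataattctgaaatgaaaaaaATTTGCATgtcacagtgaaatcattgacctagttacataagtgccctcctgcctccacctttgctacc
Blnk: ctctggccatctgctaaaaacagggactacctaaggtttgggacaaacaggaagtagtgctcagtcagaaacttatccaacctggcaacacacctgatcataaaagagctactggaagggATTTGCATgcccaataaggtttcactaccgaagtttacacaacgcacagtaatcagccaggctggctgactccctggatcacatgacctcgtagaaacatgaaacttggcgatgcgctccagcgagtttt
A match is a description of the letters, and no binding was measured.

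Some lists were lower in Model together with transcripts that other cells carry. Of 20 immediate-early and heat shock genes, 11 were lower and none higher (median log2 ratio -0.64), and in T cells 5 were lower and none higher (median -0.27). Jun was at 265 CPM in PD00, 180 CPM in Model and 503 CPM in Control (0.358; 0.328 to 0.390), and Fos at 260, 178 and 428 CPM (0.416; 0.380 to 0.455). Of 10 measured cytokine and regulatory genes 5 were lower and none higher, with a median of -0.55. That median was -0.84 over 9 members without doublets. Without the cells that showed 5 or more cell cycle genes it was -0.01, also over 9 members. Tnf had 8.52, 3.49 and 149 CPM, with 146 of its 471 Control UMIs in a single B cell, and stood at 21.5, 19.3 and 141 CPM in T cells. Il1a, at 27.4, 17.0 and 202 CPM in B cells and 47.8, 37.4 and 159 CPM in T cells, was lower in Model in both cell types. Lyz2, a macrophage product, was at 461, 470 and 2416 CPM in B cells and at 1302, 1345 and 2137 CPM in T cells. Of 11 Toll-like receptor genes 1 was higher and 3 lower, and of 15 interferon response genes 1 was higher and 5 lower.

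Cell cycle genes were higher in Model, with 9 of 17 measured members past the fold and none lower (median 0.59). In T cells 14 of 21 were higher and none lower (median 0.78). Top2a, which untangles DNA, was at 48.7 CPM in PD00, 84.7 CPM in Model and 28.5 CPM in Control (2.97; 2.35 to 3.79), and Mki67, the Ki-67 antigen of dividing cells, at 34.1, 77.9 and 45.9 CPM (1.70; 1.39 to 2.08). Metabolic lists were nearly level: none of 15 glycolysis genes, 1 of 23 TCA cycle genes (Idh2, lower) and 2 of 17 cholesterol synthesis genes (both lower, Fdps among them) passed the fold, with medians of -0.15, -0.12 and -0.04. The germinal centre list had 1 of 7 measured members higher (Lipc), the plasma cell differentiation list 2 of 13 higher (Irf4 and Ell2) and 2 lower (Prdm1 and Xbp1). The activation list had 5 of 20 higher and 5 lower, the interleukin 4 response list 2 of 12 higher and 3 lower, the marginal zone list 1 of 8 higher and 3 lower, the age-associated list 2 of 5 in each direction, and the immunoglobulin constant list 3 of 10 higher (Ighg1, Ighg3 and Igha) and 2 lower (Ighd and Ighg2b). For Ighg2b, 1 cell of Control held 1002 of 1027 UMIs, and without it Control had 25 UMIs against 109 in Model, so its count as lower rests on that cell. In T cells 7 of 7 measured members of that list were higher in Model (median 3.11).

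**Figure D3:**
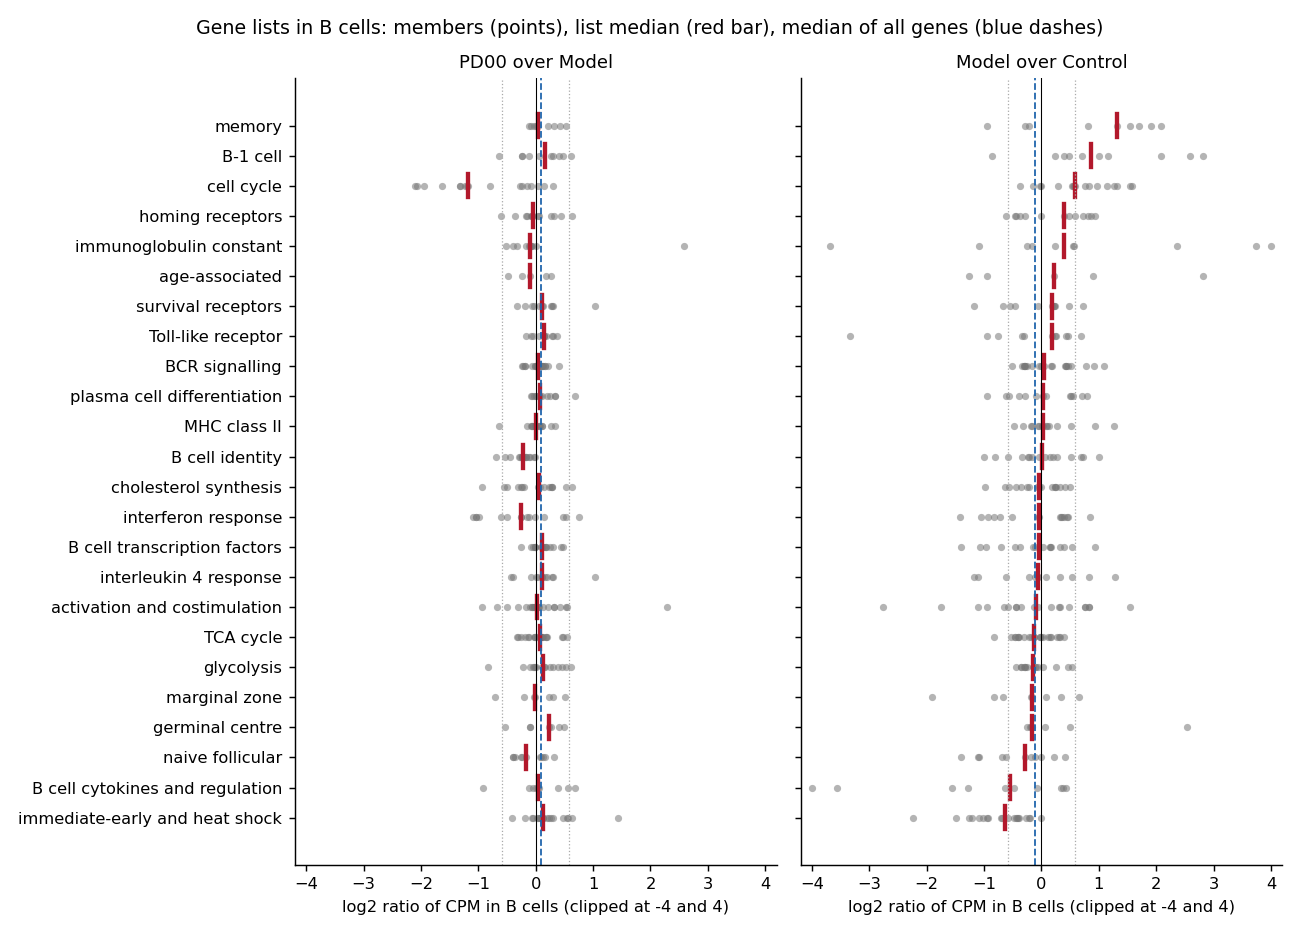
Log2 ratio of CPM in B cells (x axis, clipped at -4 and 4) of the members of the 24 gene lists (rows), for PD00 over Model and for Model over Control. Points are genes, red bars list medians, blue dashes the median of all measured genes and dotted lines 1.5-fold. The memory list has the highest median for Model over Control (1.32), and the cell cycle list the lowest for PD00 over Model (-1.18).

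The comparison of PD00 with Model asks what the peptidomimetic library shows beyond the model. The memory, B-1 and naive lists differed little between them, while cell cycle and some interferon response genes were lower in PD00. Of 8534 measured genes, 607 (7.11%) were at least 1.5-fold higher in PD00 and 209 (2.45%) at least 1.5-fold lower, and the median log2 ratio was 0.10. Scaled by the median of ratios, 434 were higher and 309 lower. The higher genes included Cldn5, a tight junction protein of endothelium, which was at 65.0 CPM in PD00, 4.65 CPM in Model and 90.2 CPM in Control B cells and at 33.3, 24.9 and 70.4 CPM in T cells. Cldn5 was found in 1.68% of B cells in PD00, 1.88% in Model and 1.83% in Control, so its levels rest on few cells. The part of endothelial transcripts in these counts was not tested. Of the 9 memory genes none passed the fold (median 0.05), of 11 naive follicular genes none (median -0.17), of 10 B-1 genes S100a6 was higher and Ctla4 lower, and of 21 genes of B cell receptor signalling and 16 transcription factors none. Ighd was nonetheless somewhat lower in PD00, with a ratio of 0.759 (0.679 to 0.847), as was Fcer2a, with 0.760 (0.653 to 0.883), and Cd80 was higher, with 1.44 (1.16 to 1.79).

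Of 17 measured cell cycle genes, 10 were at least 1.5-fold lower in PD00 and none higher, with a median of -1.18; in T cells 7 of 21 were lower and none higher, with a median of -0.31. Ube2c, which marks mitotic cyclins for destruction, was at 7.72 CPM in PD00, 33.3 CPM in Model and 13.3 CPM in Control, a PD00 over Model ratio of 0.232 (0.150 to 0.348). Birc5 (survivin), needed for chromosome segregation, was at 4.79, 20.2 and 6.96 CPM (0.237; 0.134 to 0.397). Mki67 had a ratio of 0.437 (0.354 to 0.538). The share of B cells with UMIs of 5 or more list genes did not follow this: it was 6.17% in PD00 (33 cells; 4.28 to 8.55%), 5.51% in Model (38 cells; 3.93 to 7.48%) and 2.13% in Control (14 cells; 1.17 to 3.55%). Thinned to 1000 UMIs, 2.25%, 2.76% and 1.83% had 3 or more. The cells with 5 or more had medians of 13742 UMIs in PD00, 14713.5 in Model and 20034 in Control. A doublet score of at least 0.2 marked 5 of them in PD00, 0 in Model and 6 in Control. The cells with 5 or more held 32.1% of all list UMIs in PD00, 51.4% in Model and 19.7% in Control. Without them 8 members were measured, with a median of -0.05 for PD00 over Model.

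Interferon response genes were lower in PD00 in 5 of 15 measured members and higher in 1, with a median of -0.25. Ifi27l2a, an interferon-induced mitochondrial protein, was at 134 CPM in PD00, 278 CPM in Model and 398 CPM in Control, a PD00 over Model ratio of 0.483 (0.435 to 0.537). Isg15, a ubiquitin-like modifier, was at 10.4, 22.1 and 22.8 CPM (0.470; 0.315 to 0.689), and Gbp2, a guanylate-binding protein, at 11.2, 23.0 and 16.8 CPM (0.486; 0.330 to 0.704). Zbp1 and Phf11b were the other lower members, and Iigp1 the higher one. In T cells the order was the same, with 13 of 23 measured members lower and none higher (median -0.72).

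By the naming rule the 10 highest genes in PD00 included Zbtb20, a zinc finger transcriptional repressor, at 724 CPM in PD00, 478 CPM in Model and 236 CPM in Control (1.51; 1.43 to 1.60), found in 74.8%, 65.8% and 42.2% of B cells. Runx3, a transcription factor of lymphocytes, was at 148, 101 and 50.6 CPM (1.47; 1.29 to 1.67). Also among the 10 were Apoc2, Etl4, Tchp, Sft2d1, Mir155hg, E2f2 and Eya1, with ratios of 1.92 to 2.80 and levels of 10.7 to 36.2 CPM in PD00. Mir155hg, the host transcript of miR-155, was at 36.2, 18.8 and 18 CPM in B cells and at 40.7, 24.8 and 14.2 CPM in T cells.

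The 10 lowest genes included receptors and surface proteins of mature B cells. Fcmr was at 185 CPM in PD00, 270 CPM in Model and 342 CPM in Control (0.687; 0.624 to 0.755), Cr2, the complement receptor CD21, at 34.4, 56.3 and 53.1 CPM (0.610; 0.489 to 0.759), and Cd72, an inhibitory co-receptor, at 87.6, 119 and 133 CPM (0.736; 0.639 to 0.847). Plac8 was at 457, 682 and 420 CPM (0.671; 0.632 to 0.713), and Ly6d, Tmem108, Satb1, Crem, Egr3 and Pold4 had ratios of 0.573 to 0.756. Among cells with an Ighd UMI alone, Cr2 was at 81.0 CPM in PD00 and 99.6 CPM in Model, a ratio of 0.813, and the ratio of Cd72 was 1.05, so its direction turned. Also nearer to 1 in these cells were Plac8 (0.750), Ly6d (0.821), Fcmr (0.848), Satb1 (0.942) and Egr3 (0.966). Of the 10 highest genes, Runx3 was at 1.22 there and Zbtb20 at 1.67.

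Among the remaining lists few members passed the fold between PD00 and Model. Ccl22, a chemokine for T cells, was at 13.6 CPM in PD00 against 2.79 CPM in Model, with 35 of its 51 PD00 UMIs in a single cell. Bcl2l1, an inhibitor of apoptosis, was at 12.8 and 6.28 CPM (2.04; 1.24 to 3.39), with 41.6 and 33.5 CPM in T cells. Fosb and Ier3 were the 2 higher members of the immediate-early list, which had none lower. Eno1, a glycolytic enzyme, was at 108 and 70.7 CPM (1.53; 1.31 to 1.78), and no gene of the TCA cycle passed the fold.

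Set against Control, PD00 had 930 of 8409 measured genes (11.1%) at least 1.5-fold higher and 1113 (13.2%) lower. This balance turned with the mean of the CPM of each cell, to 1430 higher and 968 lower, without doublets, to 1066 and 916, without the cells that showed 5 or more cell cycle genes, to 1097 and 828, and among the 719 genes at least 2 times higher in B cells than in the other cells, to 167 and 96. The comparison shares a library with each of the comparisons above, so its values stand beside those of the others and add no separate evidence. For Zbtb32 the PD00 over Control ratio was 3.91 (2.58 to 6.11), for Fcrl5 5.96 (3.32 to 11.6), for Ighd 0.355 (0.320 to 0.393) and for Klf2 0.422 (0.398 to 0.447).

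IgD transcripts split the B cells of each library, a split chosen after seeing the data. Ighd UMIs were found in 38.7% of B cells in PD00 (207 cells; 34.5 to 43.0%), 43.0% in Model (297 cells; 39.3 to 46.8%) and 70.4% in Control (462 cells; 66.8 to 73.9%). Thinned to 1000 UMIs the shares were 18%, 20.8% and 38.5%, and in T cells, which do not express IgD, with medians of 4342.5, 4568.5 and 4444 UMIs per cell, the unthinned shares were 0.278%, 0.677% and 0.830%. Cells without Ighd UMIs had more UMIs in PD00, with a median of 7050 against 3961 UMIs, and in Model, with 5953 against 3969 UMIs; in Control the medians were 3329.5 and 3433 UMIs.

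Within each library the cells without Ighd UMIs had less Fcer2a, at 21.5 against 206 CPM in PD00, 47.5 against 198 CPM in Model and 115 against 264 CPM in Control. They had less Bach2, a repressor that keeps B cells from becoming plasma cells, by ratios of 0.435, 0.543 and 0.457. They had more Zbtb32, at 43.3 against 14.8 CPM in PD00, 52.3 against 12.1 CPM in Model and 17.5 against 5.34 CPM in Control. Cd80 had ratios of 3.85, 1.96 and 3.19, S100a6 of 3.38, 2.18 and 4.62, and Lmo7 of 2.30, 2.30 and 2.6. Other members of the memory and B-1 lists did not follow: Ccr6 had ratios of 0.819, 0.880 and 0.559 and Hhex of 0.785, 0.710 and 0.949, with intervals that included 1 for Ccr6 in PD00 and Model and for Hhex in all 3 libraries. Ahr was higher without Ighd in PD00 and Model (1.63 and 1.76), and its Control ratio was 0.668 (0.332 to 1.25). Of the naive genes, Ccr7 and Cd55 were lower without Ighd in PD00 (0.591 and 0.627) and Model (0.681 and 0.556), while their Control ratios were 0.972 and 0.969, and Klf2 had 0.693, 0.685 and 1.21. Cr2 was lower in the cells without Ighd in PD00 (0.170; 0.113 to 0.253) and Model (0.316; 0.240 to 0.413), while the interval of Control (0.721; 0.489 to 1.04) included 1. H2-Aa differed little, with ratios of 0.933, 0.939 and 0.849.

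Among cells with an Ighd UMI alone, the naive follicular list had a median log2 ratio of 0.03 over 11 members for Model over Control. Ighd itself, by which these cells were chosen, was kept among the 11. Fcer2a was at 206 CPM in PD00, 198 CPM in Model and 264 CPM in Control, a Model over Control ratio of 0.750. The memory list had a median of 0.36 and the B-1 list one of 0.01, each over 6 members with enough UMIs. Zbtb32, Pdcd1lg2 and Nt5e fell out of the memory list, and Zbtb32 and Fcrl5 were among those lost from the B-1 list. These medians thus cover fewer members than those over all B cells. From few UMIs, the Model over Control ratio was 2.27 for Zbtb32 (1.05 to 5.14) and 2.55 for Pdcd1lg2 (1.06 to 6.56). For Nt5e it was 1.64 (0.520 to 5.32), and Fcrl5 was at 14.05 CPM in Model against 1.33 CPM in Control. Among these cells Klf2 was at 605, 532 and 1064 CPM, a Model over Control ratio of 0.500 (0.461 to 0.541), and Lmo7 at 47.9, 44.1 and 8 CPM (5.51; 3.24 to 9.83). Ighd UMIs were sparse, so a cell without one may still carry the transcript.

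**Figure D4:**
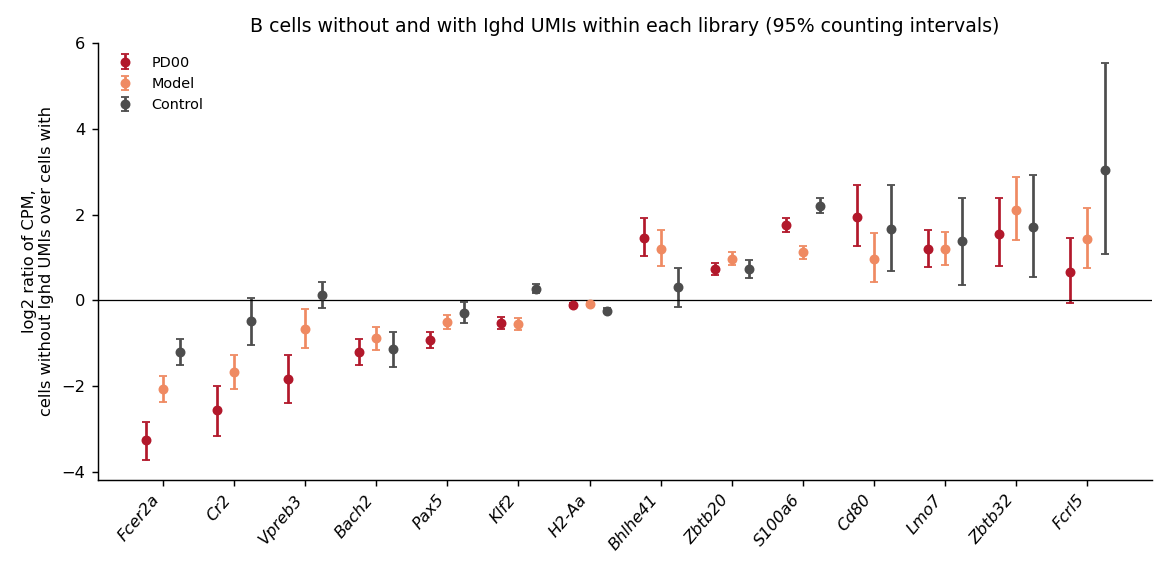
Log2 ratio of CPM in cells without Ighd UMIs over cells with them (y axis) for 14 genes (x axis) within the PD00, Model and Control libraries, with 95% counting intervals. Fcer2a lies below 0 and Zbtb32 and Cd80 above 0 in all 3 libraries, whereas Klf2 lies below 0 in PD00 and Model and above 0 in Control.

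The heavy chain genes show which immunoglobulin class a B cell transcribes. Ighm, the IgM chain, was at 2558 CPM in PD00, 2687 CPM in Model and 1806 CPM in Control, against 155, 77.7 and 29.9 CPM in T cells. Ighg1 (IgG1) was at 759, 853 and 1.27 CPM in B cells, but at 597, 796 and 0 CPM in T cells, which do not transcribe it, and had UMIs in 92.5% and 93.8% of B cells of PD00 and Model. Igha was at 214, 267 and 19.9 CPM in B cells and 101, 168 and 9.01 CPM in T cells. Ighg3 was at 39.7, 56.7 and 11.1 CPM against 8.08, 1.59 and 0 CPM. Ighe was at 11.2 CPM in PD00, 1.86 CPM in Model and 0 in Control, where a count of 0 allows up to 0.949 CPM, and at 10.1, 0.564 and 0 CPM in T cells. Ighg2b reached 325 CPM in Control, with 1002 of its 1027 UMIs in a single cell.

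By the class with the most UMIs, with at least 3 UMIs of it, a switched class was called in 24.3% of B cells in PD00 (20.7 to 28.2%), 16.1% in Model (13.4 to 19.0%) and 1.37% in Control (0.629 to 2.59%). The same rule called one in 53.1%, 65.1% and 0 T cells, with Ighg1 alone called in 20.4% of B cells against 52.4% of T cells in PD00 and 11.3% against 64.2% in Model. The shares are not alike in kind, since a B cell's own Ighm can displace Ighg1 as the class with the most UMIs. With at least 10 UMIs, Ighg1 was called in 12% of B cells against 4.48% of T cells in PD00 and in 5.07% against 8.80% in Model. Each chain was also set against the T cell level, an alternative chosen after seeing the data: a cell counted if its UMIs fell in the upper 0.1% of a Poisson distribution at the T cell rate and its own depth. A switched class then stood above that level in 15.3% of B cells in PD00 (12.4 to 18.7%), 10.1% in Model (7.99 to 12.6%) and 1.68% in Control (0.840 to 2.98%), against 1.63%, 3.55% and 0 T cells. Ighg1 did so in 6.73% of PD00 B cells against 1.39% of T cells, and in Model in 3.33% against 3.19%, which lay within the counting error of B cells (2.12 to 4.96%). Igha did so in 6.36% of B cells in PD00, 3.91% in Model and 0.457% in Control, against 0.278%, 1.35% and 0 T cells. Ighg3 did so in 2.99%, 2.90% and 0.610% of B cells and in no T cell, where the exact intervals reach up to 0.146%, 0.119% and 0.191%. Ighm stood above its T cell level in 70.7% of B cells in PD00, 82.2% in Model and 82.3% in Control.

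**Figure D5:**
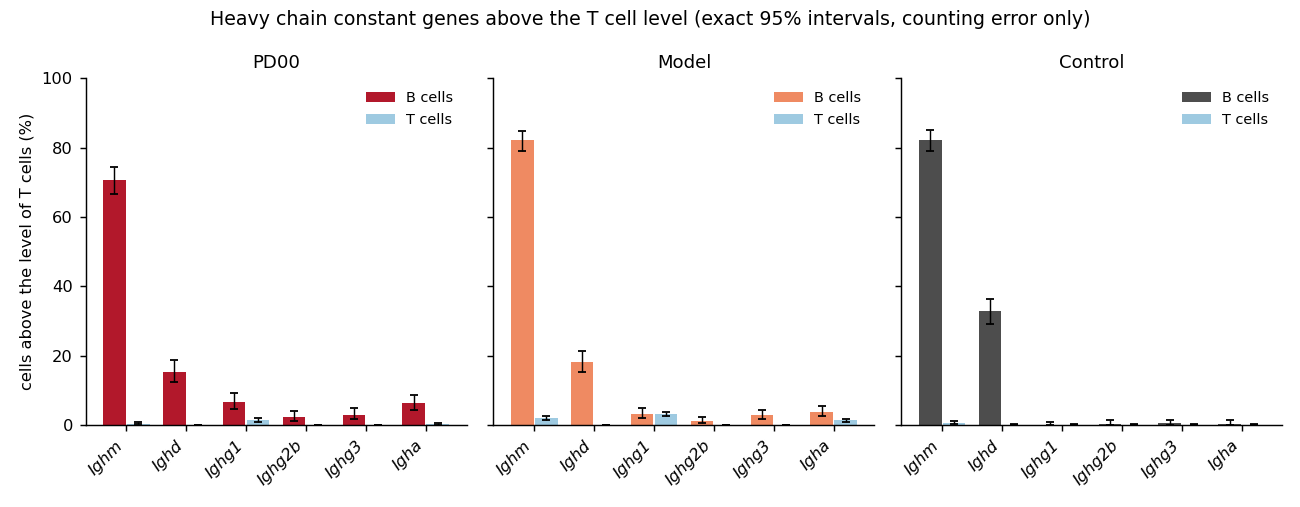
Share of B cells and of T cells (y axis, percent) whose UMIs of each heavy chain gene (x axis) exceed the level of T cells, in PD00, Model and Control, with exact 95% intervals. Ighd is above that level in 15.3% of B cells in PD00 and 18.3% in Model against 32.8% in Control, and Igha in 6.36% and 3.91% against 0.457%.

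Light chains were described by the same sums. The kappa chain Igkc had a median of 23 UMIs per B cell in PD00, 23 in Model and 19 in Control, against 5, 6 and 0 in T cells. Cells in which lambda constant genes outnumbered Igkc were 6.54% in PD00 (4.60 to 8.98%), 5.80% in Model (4.17 to 7.81%) and 5.03% in Control (3.49 to 6.99%), and these intervals overlap.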

How the data were processed

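Lung cells of 3 libraries, 1 per treatment, were profiled on 10x Chromium with the 3' version 3 kit, per the labels' protocols. The deposited matrices hold UMI counts per gene and barcode, not normalised, for 32285 genes and for barcodes already called as cells. Per the submitters' processing notes, Cell Ranger 3.1.0, STAR and mm10 were used; the version that wrote the matrices was cellranger 5.0.0, per the file headers. No correction for free RNA was made.

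UMIs of the B cells of each library were summed and scaled to CPM (python 3.11.15, scipy 1.17.1). A gene was measured from 50 UMIs upward in the 2 sums together and compared as a ratio of CPM with its exact conditional binomial 95% interval. Where a sum held no UMI, 3 counts stood in for it. Past the fold means at least 1.5-fold. Shares have exact Clopper-Pearson intervals. The ratios and their intervals were tested on simulated sums with known answers, and the shares were not. The simulated counts were Poisson draws, without UMIs gathered in single cells. For genes simulated at 2-fold the interval held the true ratio in 88.5% (PD00 over Control) to 99.0% (PD00 over Model) of them. Doublets were scored with Scrublet in scanpy 1.11.5 and kept in the main analysis. Cells of at least 1000 UMIs were thinned to 1000 UMIs for shares.

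The gate, the 24 gene lists, from which gate genes were left out, and the markers were chosen with earlier results of these data known. Named genes were the 10 highest and 10 lowest by the interval bound nearest to 1, among genes found in at least 5% of B cells with a CPM at least 2 times that of the other cells, without gate, immunoglobulin, mitochondrial, ribosomal, haemoglobin and sex-specific genes and unnamed models. Also named were 2 to 4 members of each described list, and the heavy chain genes. Other genes named as past the fold in a list were chosen after their values were seen. Gene coordinates are those of GRCm38 in the GENCODE annotation. Some genes are not reported here. Alternatives are given in the closing section.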

Additional observations from a re-analysis of the deposited data

Results flagged for a closer look

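A pair of the named genes stood at least 1.5-fold higher in B cells and at least 1.5-fold lower in T cells of the same libraries. Etl4 had a log2 ratio of 1.48 for PD00 over Model in B cells, from 44 UMIs in PD00 and 18 UMIs in Model, and of -0.89 in T cells. Zcwpw1 had a log2 ratio of 1.98 for Model over Control in B cells, from 166 UMIs in Model and 31 UMIs in Control, and of -1.01 in T cells. Up to 22 UMIs of Zcwpw1 came from a single B cell of PD00 and up to 17 from a single cell of Model. The difference between the cell types was not tested in either gene.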

How the results depend on the processing

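No paired analysis was possible because each treatment has 1 library, and no replicate could be left out. The ratio of B cell shares for PD00 over Model lay within its interval under all 7 alternatives. For Model over Control it turned to 1.05 among cells with a Ptprc UMI and moved to 0.705 after thinning before the gate; for PD00 over Control it moved to 0.942 with the stricter gate, 0.960 among Ptprc cells and 0.586 after thinning.

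Counts of genes past the fold (PD00 over Model, Model over Control, PD00 over Control) moved by over 1.5 times as follows. With a minimum of 20 UMIs, 1159 and 1037 were higher in the first 2 and 508, 2162 and 1773 lower in all 3. With a minimum of 200 UMIs, 89, 262 and 346 were higher and 43, 524 and 428 lower. With a fold of 2, 184, 207 and 280 were higher and 73, 594 and 427 lower. With the mean of the CPM of each cell, 1095 and 1430 were higher for the comparisons with Control, and 316 were lower for PD00 over Model. Among genes at least 2 times higher in B cells (added after seeing the data), 34, 127 and 167 were higher and 12, 79 and 96 lower. The stricter gate, doublets left out, the mitochondrial and gene limits and both scalings moved no count past that limit.

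The share of switched B cells moved to 14.2% in PD00, 7.97% in Model and 0.457% in Control with 10 UMIs of the class, to 12.9% in Model without an Ighd UMI, to 5.62%, 6.98% and 0.306% after thinning, and to 15.3% in PD00 and 10.1% in Model above the T cell level. After thinning Model stood above PD00. Over all alternatives 36 of 282 list medians for PD00 over Model and 50 of 282 for Model over Control changed sign, of which 26 and 34 had a reported median within 0.1 of 0. The memory list for Model over Control turned to -0.22 with a minimum of 200 UMIs, which leaves 5 members. The age-associated list turned to -0.95 with that minimum and to -1.01 among cells with an Ighd UMI, each over 3 members, and for PD00 over Model to 0.44 among cells with an Ighd UMI. Without cells showing 5 or more cell cycle genes, the interferon and interleukin 4 response lists for Model over Control turned to 0.31 each. The cell cycle list for PD00 over Model moved to -0.28 with that minimum. Of 218 named gene ratios for PD00 over Model 1 turned, Cd72, to 1.05 among cells with an Ighd UMI, and 16 moved. The causes were not tested.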
